A study of Gossypium hirsutum with 18 samples.

Results

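Chromosome A05 is the fifth chromosome of the A subgenome of upland cotton, *Gossypium hirsutum*. The genes described here are those whose identifier begins with Gohir.A05G and whose value averaged at least 1 over the 18 root libraries of the study, apart from 2 genes left out by the rule. The table listed 3446 A05 identifiers, 444 fell below the mean of 1, and 3000 of the 46813 tested genes (6.41%) remained. Just inside the threshold were Gohir.A05G412800 with a mean of 1.0027 and Gohir.A05G280100 with 1.0066. Just outside it were Gohir.A05G170500 with 0.99767 and Gohir.A05G290980 with 0.99704. A05 held the most tested genes of the 26 chromosomes and D05, its counterpart in the D subgenome, came next with 2731.

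Roots of 3 genotypes were compared: Acala NemX (NemX), resistant to *Meloidogyne incognita*, a root-knot nematode whose juveniles enter roots and cause galls, Wild Mexico Jack Jones (WMJJ), moderately resistant, and Acala SJ-2 (SJ2), susceptible. Seedlings of each were either infested at 12 days with 5000 second-stage juveniles (J2) per plant (rkn) or left without nematodes (ctl), and roots were taken at 23 days. Each of the 6 groups had 3 libraries. The genotypes are whole cultivars or lines that differ throughout the genome, so a difference between them belongs to no single locus. Whole roots were used, and fewer cells of a type cannot be told apart from less RNA per cell. The identifiers are not paired with gene names in the table, so the root identity of the tissue was not checked against marker genes.

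Upland cotton is an allotetraploid, with an A subgenome and a D subgenome that each carry a copy of most genes. The copies are called homoeologs, and A05 and D05 share most of theirs. A reciprocal exchange between chromosomes 4 and 5 of the A subgenome means that part of A05 corresponds to D04. Reads from 2 near-identical homoeologs can be assigned to either copy, so a value for a single copy is less certain than the sum of both. Basal differences, those between genotypes without infestation, were the question here: whether the genes of 1 chromosome took more or less than their share of them, in which direction, and where along the chromosome.

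The values were normalized by the authors and lie near a CPM scale (reads of a gene relative to the library total), with column totals between 852215 and 1096547 and between 51290 and 53850 genes above 0 in each library. The totals were lowest in SJ2_ctl (852215 to 901899) and highest in NemX_ctl (1048424 to 1096547). Values were increased by 0.5, put on the log2 scale and tested in one limma model of all 46813 genes. A call needed a Benjamini-Hochberg adjusted p below 0.01 together with a log2 fold change beyond 1 in either direction. Fold changes are on this log2(value + 0.5) scale, which understates the change of low genes. A05 was chosen because of the calls between the uninfested groups, so those counts and values are given as a description with no p. The infested comparisons use other libraries and were tested.

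In each group 1 library deviated from its group mean in the same way as in the other groups. These 6 libraries (the third of each group, but the first of NemX_rkn) correlated with one another across genes at r = 0.193 to 0.442 and with those of the 12 others from different groups at -0.299 to -0.0723. What they share is not given in the labels. In the paper's list of libraries these 6 have the most reads, each more than any of the 12 others. What lies behind the deviation was not tested. Since each group holds 1 of the 6, the leading counts are also given from the 12 others alone and from a fit with a term for the 6, both added after the data had been seen.

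Without nematodes, A05 genes took a larger part of the transcript pool in NemX and WMJJ than in SJ2. The A05 genes made up 6.725%, 6.888% and 6.864% of the library totals in NemX_ctl, 6.658%, 6.658% and 6.513% in WMJJ_ctl, and 6.228%, 6.299% and 6.142% in SJ2_ctl. The 3 groups did not overlap, and SJ2_ctl was the lowest of all 6. The same held for D05, with 6.88% ± 0.0640 in NemX_ctl, 6.51% ± 0.103 in WMJJ_ctl and 6.20% ± 0.0760 in SJ2_ctl (SD, n = 3 each). This share does not depend on the library total.

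With nematodes the spread between the genotypes was smaller. The A05 share was 7.0% ± 0.136 in NemX_rkn, 6.75% ± 0.121 in WMJJ_rkn and 6.73% ± 0.0509 in SJ2_rkn (SD, n = 3 each). NemX_rkn lay above SJ2_rkn by 0.265 percentage points, with no overlap between the libraries (exact two-sided permutation test, p = 0.1, adjusted p = 0.3 over 3 comparisons), and 0.1 is the smallest p that 3 libraries against 3 allow. Much of this gap came from a single gene, Gohir.A05G283000. It had 2171, 992 and 1818 in NemX_rkn, where library totals were 1018715 to 1049994, and 2.61, 4.86 and 142 in SJ2_rkn. The gap is therefore no trait of the chromosome as a whole, and shares without this gene were not tested. WMJJ_rkn differed from SJ2_rkn by 0.0174 percentage points (exact permutation p = 0.8) and NemX_rkn from WMJJ_rkn by 0.248 (exact permutation p = 0.2), with overlapping libraries in both. The plot of shares by library shows that the wide gaps lie among the uninfested groups.

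**Figure D1:**
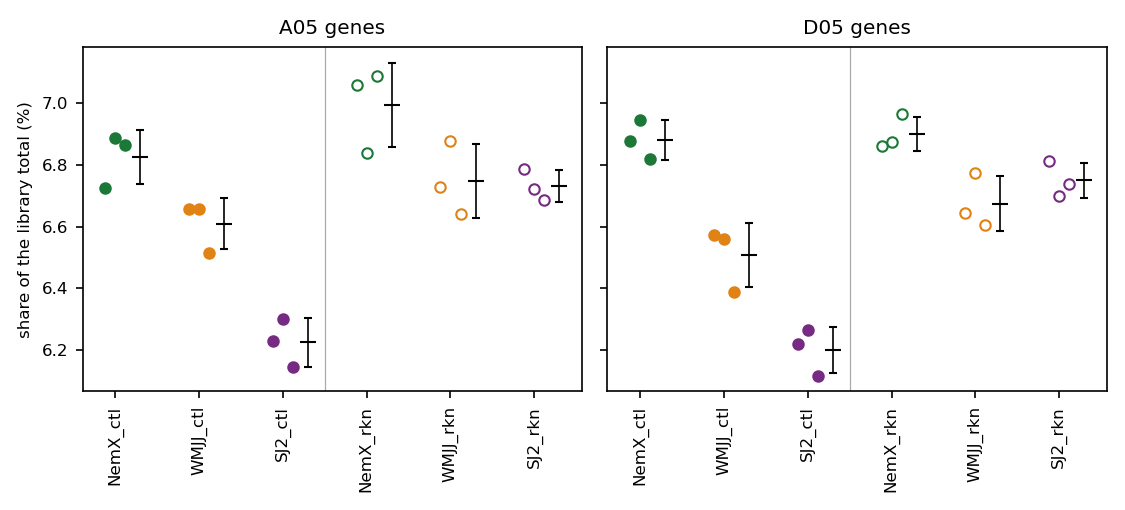
Share of each library total held by A05 genes (left) and D05 genes (right), in percent, for the 6 groups. Points are libraries (filled without nematodes, open with nematodes) and bars are the mean ± SD of 3 libraries. The 3 SJ2_ctl libraries, at 6.142% to 6.299% for A05, lie below all others, and the axis does not start at 0.

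The excess of A05 among basal differences lay in genes that were higher than in SJ2. In NemX_ctl against SJ2_ctl, 356 A05 genes were called higher (11.9%), against 9.37% of all tested genes, and 128 were called lower (4.27%), against 4.11% of all. In WMJJ_ctl against SJ2_ctl, 294 were called higher (9.80%), against 7.76% of all, and 168 lower (5.60%), against 5.82% of all. The share called higher on A05 was above that of each of the 24 chromosomes other than A05 and D05, which ran from 7.07% to 9.80% for NemX and from 6.26% to 8.83% for WMJJ. The share called lower lay inside the range of those chromosomes, 3.06% to 4.94% for NemX and 4.27% to 7.34% for WMJJ.

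A05 was not alone in this. D05 had 331 genes called higher in NemX_ctl over SJ2_ctl (12.1%) and 251 in WMJJ_ctl over SJ2_ctl (9.19%), so that the 2 homoeologous chromosomes held the first and second place in both comparisons. These 2 comparisons share the SJ2_ctl libraries. Between the 2 resistant genotypes no excess was seen: in NemX_ctl against WMJJ_ctl, 110 A05 genes were called higher (3.67%), against 3.74% of all genes, and 53 lower (1.77%), against 2.09% of all. The label under which A05 was chosen, a chromosome rich in basal differences, therefore describes genes higher than in SJ2_ctl, and D05 as much as A05.

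The typical A05 gene hardly moved. The median log2 difference of A05 genes was -0.01 in NemX_ctl over SJ2_ctl and 0.01 in WMJJ_ctl over SJ2_ctl, beside -0.06 and -0.03 over all tested genes. Among A05 calls, 73.6% were higher in NemX_ctl than in SJ2_ctl, and 63.6% were higher in WMJJ_ctl than in SJ2_ctl. These splits depend on the scaling, because the library totals differ: with each library brought to the same total, the splits were 51.2% in both comparisons and the median over all genes shifted to -0.33 and -0.18. The excess of A05 over the other genes remained under that scaling, with 9.17% of A05 genes and 6.91% of the other genes called higher in NemX_ctl over SJ2_ctl, and 8.0% and 6.49% in WMJJ_ctl over SJ2_ctl. Leaving out the third SJ2_ctl library lowered the count called lower in NemX_ctl to 85.

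The A05 excess remained when the 6 libraries were set aside. The 12 others alone gave 332 A05 genes called higher in NemX_ctl over SJ2_ctl (11.1%, against 8.76% of the genes outside A05) and 255 in WMJJ_ctl over SJ2_ctl (8.5%, against 6.81%). With a term for the 6 libraries the counts were 369 (12.3%, against 9.66%) and 311 (10.4%, against 8.09%). Both fits reuse uninfested libraries on which the choice of A05 rested, so they are a description and no separate evidence of the excess.

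The excess was present at low and high expression. Of A05 genes with a mean from 1 to below 5, 5.48% were called higher in NemX_ctl than in SJ2_ctl, against 3.96% on the chromosomes other than A05 and D05. Of those from 5 to below 20, 10.8% were called, against 7.60%. Of those at 20 and above, 21.4% were called, against 18%. A05 had 26.9% of its genes in this highest class and the other chromosomes had 25.7%.

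**Figure D2:**
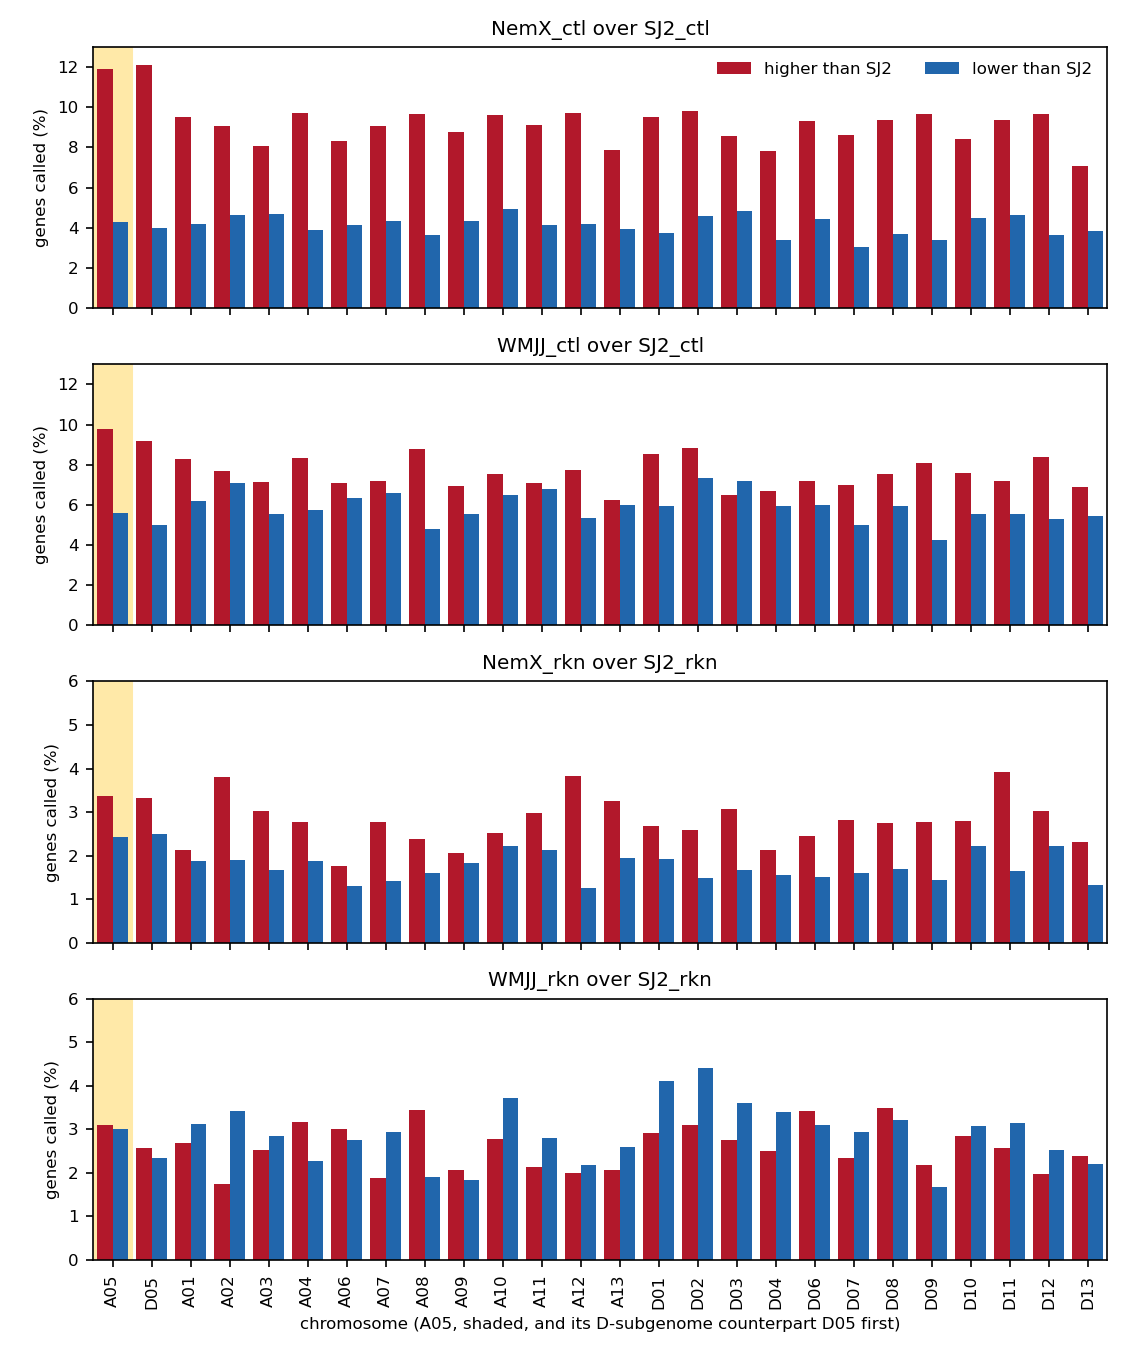
Percent of tested genes called higher (red) or lower (blue) than in SJ2 on each chromosome, with A05 shaded and D05 beside it, in 4 comparisons, where the 2 infested panels have a smaller scale. A05 and D05 reach 11.9% and 12.1% called higher in NemX_ctl over SJ2_ctl, above the 7.07% to 9.80% of the other chromosomes, while in NemX_rkn over SJ2_rkn the others reach 3.91%, above the 3.37% of A05.

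Under infestation fewer A05 genes separated NemX and WMJJ from SJ2, while more separated NemX from WMJJ. In NemX_rkn over SJ2_rkn, 101 A05 genes were called higher (3.37%), against 2.88% of all, within the range of 1.77% to 3.91% on the other chromosomes. There, 73 were called lower (2.43%), against 1.81% of all, and this share was above the range of the other chromosomes (1.25% to 2.23%) and next to that of D05 (2.49%). The 12 libraries outside the set of 6 gave 114 called higher and 64 lower. Leaving out the first or the second SJ2_rkn library gave 63 and 65 A05 genes called higher and 42 and 47 called lower, and leaving out the third NemX_rkn library gave 48 called lower. In each of these fits the A05 share called lower, 1.40%, 1.57% and 1.60%, was above that of the genes outside A05, 1.0%, 1.1% and 1.19%.

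In WMJJ_rkn over SJ2_rkn, 93 A05 genes were called higher (3.10%), against 2.60% of all, and 90 lower (3.00%), against 2.87% of all. In NemX_rkn over WMJJ_rkn, 138 were called higher (4.60%), against 4.96% of all, and 111 lower (3.70%), against 3.45% of all. A05 thus lay near the background in both.

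About 1 in 5 of the basal A05 calls of NemX against SJ2 was also made in the infested libraries, which are separate from the uninfested ones. Of the 356 A05 genes called higher in NemX_ctl, 70 were called higher in NemX_rkn over SJ2_rkn, which is 19.7% of the first list and 69.3% of the second, and 2 were called lower. Over all genes the corresponding shares were 18.6% and 60.5%, and 41 of the 4386 genes called higher in the whole table were called lower. In sign, 291 of the 356 were above 0 in the infested comparison (81.7%), beside 3466 of the 4386 (79.0%). The median log2 difference was 0.56 on A05 and 0.52 over the 4386, so A05 lay near the whole table. Without the first, the second or the third SJ2_rkn library the 70 became 50, 47 and 87, and it became 50 without the third NemX_rkn library. Of the 128 called lower, 25 were also lower with nematodes (19.5% of the first list and 34.2% of the second, beside 14.7% and 33.3% over all genes).

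For WMJJ the calls higher recurred in a like share and the calls lower in a larger one. Of the 294 A05 genes called higher in WMJJ_ctl over SJ2_ctl, 62 were called higher in WMJJ_rkn over SJ2_rkn (21.1% and 66.7% of the lists, beside 21.6% and 64.6% over all genes). Of the 168 called lower, 50 were called lower again (29.8% and 55.6%, beside 30.0% and 60.8%). Calls between the resistant genotypes recurred more often: of the 110 A05 genes higher in NemX_ctl than in WMJJ_ctl, 49 were higher in NemX_rkn than in WMJJ_rkn (44.5%), and of the 53 that were lower, 35 were lower again (66.0%), beside 53.1% and 59.7% of all genes called. The plot of A05 fold changes with and without nematodes shows the points of the shared calls along the diagonal and a band of genes that differed in the uninfested roots and lay near 0 in the infested ones.

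**Figure D3:**
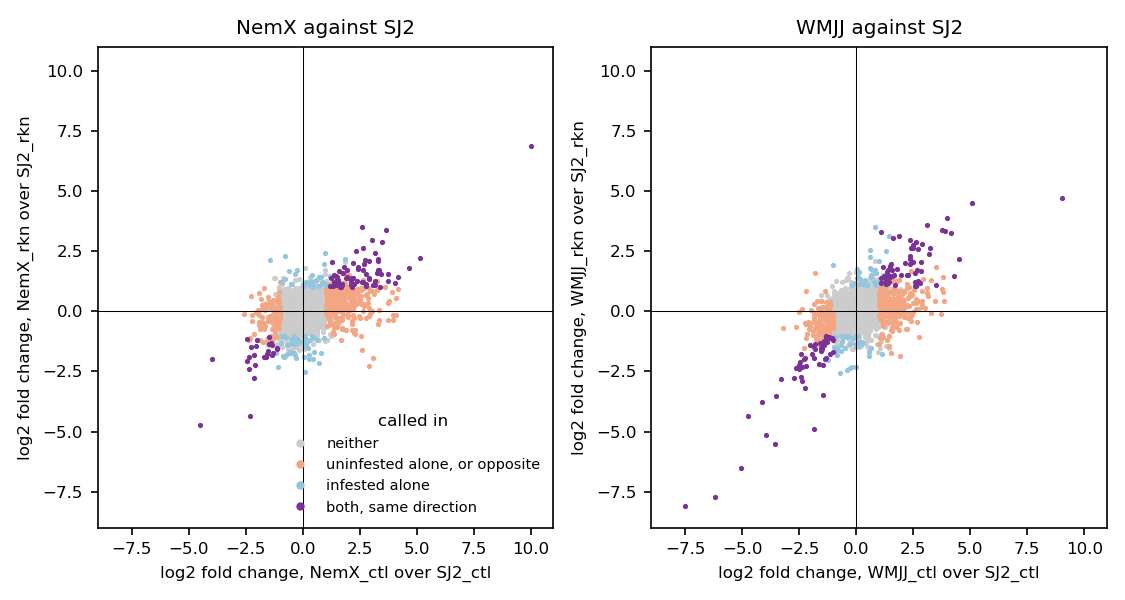
Log2 fold change of each of the 3000 A05 genes without nematodes (horizontal axis) and with nematodes (vertical axis), for NemX against SJ2 (left) and WMJJ against SJ2 (right). Purple points were called in both in the same direction, 70 higher and 25 lower for NemX and 62 higher and 50 lower for WMJJ.

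The response to nematodes, infested over uninfested, had the most increases in SJ2, and the decreases were about as many in WMJJ. In SJ2, 289 A05 genes were called higher after infestation (9.63%), against 8.09% of all, and 157 lower (5.23%), against 5.92% of all. In WMJJ, 188 were called higher (6.27%), against 5.60% of all, and 158 lower (5.27%), against 4.84% of all. In NemX, 23 were called higher (0.767%), against 0.568% of all, and 15 lower (0.50%), against 0.666% of all. The SJ2_ctl libraries serve both the SJ2 response and the basal comparisons, so the count of 289 is no separate observation. For NemX the counts rested on single libraries. The 12 libraries outside the set of 6 gave 14 called higher and 17 lower. Without one of the first 2 NemX_ctl libraries or the first or the third NemX_rkn library, 10 to 13 were called higher, and without one NemX_ctl library or the second or the third NemX_rkn library, 4 to 8 were called lower.

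The difference between responses came from the same fit. It uses the uninfested libraries on which the choice of A05 rested, so these counts are no separate observation. Taken with its sign, the SJ2 minus NemX difference was called positive for 206 A05 genes (6.87%), against 5.22% of all. It was called negative for 48 (1.60%), against 1.83% of all, and the background in both directions together was 7.05%. Between SJ2 and WMJJ the numbers were 154 (5.13%, against 3.95% of all) and 32 (1.07%, against 1.12% of all), with 5.08% of all genes in both directions together. Between WMJJ and NemX they were 34 (1.13%, against 1.05% of all) and 15 (0.50%, against 0.414% of all), and this total of 49, where both directions held 1.46% of all genes, became 20 to 29 without the second NemX_ctl, the first WMJJ_ctl, the first or the third NemX_rkn or the first or the third WMJJ_rkn library.

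The response of the genotype left out of a basal comparison shares no library with it, and it is given here as a description. The 356 A05 genes called higher in NemX_ctl over SJ2_ctl had a median log2 response of -0.25 in WMJJ, with 48 called higher after infestation and 60 lower. The 4386 such genes of the whole table had a median of -0.15, with 583 called higher and 787 lower. The 294 called higher in WMJJ_ctl over SJ2_ctl had a median response of -0.30 in NemX, with 1 called higher and 8 lower, and the 3635 such genes of the whole table had -0.30, with 21 higher and 172 lower. Of the basal decreases on A05, the 128 of NemX_ctl had a median response of 0.02 in WMJJ (15 higher, 11 lower), as did all 1924 such genes, and the 168 of WMJJ_ctl had 0.13 in NemX (5 higher, 0 lower), as did all 2723. The A05 lists thus lay close to those of the whole table, apart from the lower median of the 356.

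Genes called higher than in SJ2_ctl were spread along A05. No annotation of these identifiers was at hand, so their order was taken from their numbers and was not checked. In 6 successive blocks of 500 genes, 13.2%, 10.8%, 14.6%, 13.2%, 10.4% and 9.0% were called higher in NemX_ctl over SJ2_ctl. In 60 windows of 50 genes the count ran from 1 to 11, with a median of 6, where D05 windows ran from 1 to 17 and those of the other chromosomes from 0 to 15. In WMJJ_ctl over SJ2_ctl it ran from 1 to 9 on A05, with a median of 5. These calls were not gathered in 1 block, and the plot of calls by window shows red bars from one end to the other.

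Genes called lower in NemX were less evenly spread. Windows 22 to 24, members 1051 to 1200 from Gohir.A05G139700 to Gohir.A05G161000, were singled out after their values had been seen and are described with no test. Of these 150 genes, 15 were called lower in NemX_ctl over SJ2_ctl (10.0%), against 113 of the other 2850 A05 genes (3.96%), and 14 were called lower in NemX_rkn over SJ2_rkn (9.33%), against 59 of the others (2.07%). NemX was also lower than WMJJ there, in 10 genes without nematodes (6.67%, against 1.51%) and in 16 with nematodes (10.7%, against 3.33%). WMJJ was lower than SJ2 in 10 genes of the stretch with either treatment, 6.67%, against 5.54% of the other A05 genes without nematodes and 2.81% with them.

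The 14 genes became 10 without the third NemX_rkn library, 8 without the first SJ2_rkn library and 11 without the second, where the other A05 genes had 38, 34 and 36. The first of these windows held 7 genes called lower in NemX_rkn over SJ2_rkn, and on chromosomes other than A05 and D05, 2 of 808 windows held 6 or more, with a highest count of 8 on D13. Such windows were commoner in other comparisons: for genes lower in NemX_ctl than in SJ2_ctl, 25 of those 808 windows held 6 or more, with a highest count of 10, where A05 had 2 of 60 with a highest count of 7. For genes lower in NemX_rkn than in WMJJ_rkn the number was 20 of 808. Both lists, without and with nematodes, held 6 genes of the stretch. One of them, Gohir.A05G155700, had 3.73, 6.90 and 7.39 in NemX_ctl and 27.8, 25.5 and 45.6 in SJ2_ctl, and 6.18, 11.4 and 5.97 in NemX_rkn and 43.1, 46.4 and 34.6 in SJ2_rkn. WMJJ stood with NemX without nematodes (6.20, 8.21 and 7.57) and nearer to SJ2 with them (25.1, 18 and 33.4).

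**Figure D4:**
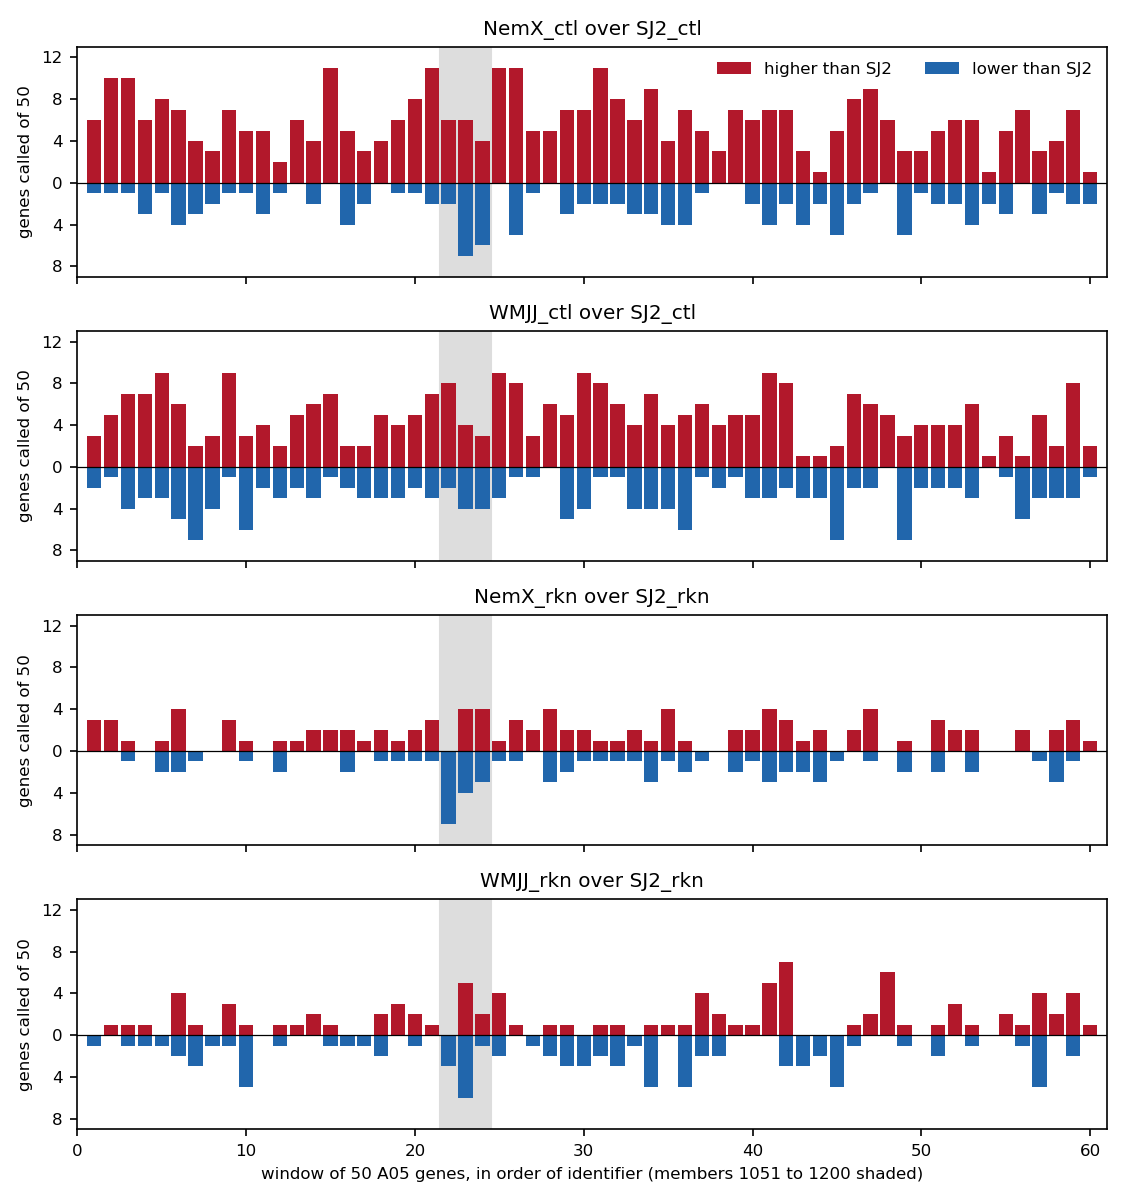
Number of A05 genes called higher (red, upward) or lower (blue, downward) than in SJ2 in 60 windows of 50 genes in order of identifier, in 4 comparisons. Red bars run along the whole chromosome, from 1 to 11 genes in NemX_ctl over SJ2_ctl, and the shaded windows (members 1051 to 1200) hold 15 of the 128 genes called lower in NemX_ctl and 14 of the 73 called lower in NemX_rkn.

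Adjacent calls were short. The longest run of neighbouring members with the same call was 3 genes, and the runs were found after the values had been seen. Gohir.A05G152650, Gohir.A05G152675 and Gohir.A05G152700 form one run, lower in NemX_ctl than in either other genotype and lower in NemX_rkn than in WMJJ_rkn. Gohir.A05G152650 was listed at 0 in all 6 NemX libraries, and at 1.71, 1.81 and 0.944 in WMJJ_ctl and 0.884, 1.80 and 1.39 in SJ2_ctl. With nematodes it had 3.73, 2.78 and 2.71 in WMJJ_rkn and 0.805, 0.370 and 0.765 in SJ2_rkn. How reads were divided among these 3 closely numbered identifiers was not tested.

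Gohir.A05G061600, Gohir.A05G061700 and Gohir.A05G061800 were called lower in WMJJ than in SJ2 in both treatments. For Gohir.A05G061800 the uninfested libraries overlapped, with 2.4, 5.71 and 3.49 in WMJJ_ctl and 20.2, 17.0 and 4.26 in SJ2_ctl. With nematodes Gohir.A05G061700 had 34.3, 33.1 and 47.9 in WMJJ_rkn, against 87.6, 92.2 and 109 in SJ2_rkn (log2 fold change -1.33, limma adjusted p = 0.000643). This run was picked out by these same calls in both treatments, which are therefore no separate evidence. Gohir.A05G014000, Gohir.A05G014100 and Gohir.A05G014200 were higher than in SJ2_ctl in both resistant genotypes. Of these only Gohir.A05G014000 was called again with nematodes, at 84.9, 93.7 and 79.1 in NemX_rkn and 159, 169 and 125 in WMJJ_rkn, against 31.7, 16.5 and 44.5 in SJ2_rkn (log2 fold change 1.57, limma adjusted p = 9.41e-05 for NemX; 2.37, adjusted p = 2.01e-07 for WMJJ).

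The widest basal difference on the chromosome was that of Gohir.A05G283000. It had 643, 958 and 1162 in NemX_ctl and 394, 495 and 475 in WMJJ_ctl, against 2.06, 0 and 0 in SJ2_ctl, where 2 of 3 libraries were listed at 0. With nematodes it had 2171, 992 and 1818 in NemX_rkn and 336, 713 and 186 in WMJJ_rkn, against 2.61, 4.86 and 142 in SJ2_rkn. The third SJ2_rkn library stood far above the other 2 of its group, yet below every NemX and WMJJ library. The log2 fold change with nematodes was 6.88 (SE 0.91, limma adjusted p = 4.47e-05) for NemX over SJ2 and 4.73 (SE 0.91, adjusted p = 0.0011) for WMJJ over SJ2, and for WMJJ the call did not hold when SJ2_rkn library 1 or 2 was left out (adjusted p = 0.0119 and 0.0108).

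The next largest increases over SJ2_ctl followed 2 patterns. Gohir.A05G147700 was high in both resistant genotypes, with 101, 119 and 103 in NemX_ctl and 86.4, 68.4 and 89.2 in WMJJ_ctl, against 2.63, 5.69 and 3.35 in SJ2_ctl. With nematodes the gap was narrower, with 41.0, 40.7 and 48.1 in NemX_rkn and 32.1, 32.3 and 38.8 in WMJJ_rkn, against 8.62, 8.0 and 23.8 in SJ2_rkn (log2 fold change 1.82, SE 0.29, limma adjusted p = 0.000263 for NemX; 1.49, SE 0.29, adjusted p = 0.00116 for WMJJ). The groups did not overlap, and the call for WMJJ was lost without the first or second SJ2_rkn library (adjusted p = 0.0124 and 0.0117).

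Gohir.A05G194400 was high in NemX alone among the uninfested groups, with 24.1, 24.9 and 21.4 in NemX_ctl, 1.09, 2.34 and 0.944 in WMJJ_ctl and 0, 0.371 and 0.244 in SJ2_ctl. Infestation left NemX near the same level, with 21.4, 25.4 and 25.7 in NemX_rkn, 1.63, 2.04 and 0.832 in WMJJ_rkn and 2.91, 3.56 and 10.3 in SJ2_rkn. NemX_rkn was above SJ2_rkn (log2 fold change 2.21, SE 0.37, limma adjusted p = 0.000428) and above WMJJ_rkn (3.67, adjusted p = 4.5e-07), with no overlap.

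Gohir.A05G172700 led the window with the most calls in NemX_ctl over SJ2_ctl. It had 412, 445 and 455 in NemX_ctl and 293, 303 and 285 in WMJJ_ctl, against 20.7, 30.5 and 28.9 in SJ2_ctl. With nematodes it had 360, 265 and 329 in NemX_rkn and 183, 250 and 144 in WMJJ_rkn, against 142, 113 and 167 in SJ2_rkn. NemX_rkn remained above SJ2_rkn (log2 fold change 1.18, SE 0.19, limma adjusted p = 0.000325), and the WMJJ_rkn libraries overlapped those of SJ2_rkn (0.43, adjusted p = 0.167). Its neighbour in that window, Gohir.A05G172400, had 7.24, 5.15 and 2.97 in NemX_ctl against 1.02, 0.736 and 0 in SJ2_ctl.

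In WMJJ_ctl over SJ2_ctl the largest increases after Gohir.A05G283000 were those of Gohir.A05G318401 and Gohir.A05G239650. Gohir.A05G318401 had 24.3, 42.3 and 65.3 in WMJJ_ctl, against 0.819, 0.923 and 0.494 in SJ2_ctl, and 0, 1.21 and 1.98 in NemX_ctl. It kept this order with nematodes, at 36.4, 55.4 and 57.3 in WMJJ_rkn, against 2.31, 1.08 and 1.83 in SJ2_rkn (log2 fold change 4.50, limma adjusted p = 9.89e-07). Gohir.A05G239650 had 9.44, 12.7 and 10.8 in WMJJ_ctl and was listed at 0 in all 3 SJ2_ctl libraries. Gohir.A05G201000 and Gohir.A05G198500, from the window with the most calls in that comparison, were also highest in WMJJ_ctl, at 8.33, 7.22 and 6.15 for Gohir.A05G201000 and 5.86, 10.7 and 21.6 for Gohir.A05G198500, against at most 0.185 and 2.96 in SJ2_ctl.

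Some A05 genes were listed at or near 0 in a whole genotype with either treatment. Gohir.A05G282400 was listed at 0 in all 6 NemX libraries, and had 30.6, 30.4 and 24.4 in WMJJ_ctl and 9.88, 13.1 and 10.5 in SJ2_ctl. With nematodes it had 28.0, 25.0 and 35.6 in WMJJ_rkn and 13.2, 13 and 12.1 in SJ2_rkn, and NemX_rkn was below SJ2_rkn (limma adjusted p = 7.83e-12) and below WMJJ_rkn (adjusted p = 2.68e-14). No fold is given against a group at 0, since an exact 0 can be a failed estimate.

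Gohir.A05G152675 was likewise listed at 0 in all 6 NemX libraries, and infestation lowered it in the other genotypes. It had 4.74, 2.96 and 4.70 in WMJJ_rkn against 19.0, 14.1 and 12.5 in WMJJ_ctl, and 1.57, 1.41 and 1.35 in SJ2_rkn against 6.83, 8.03 and 7.61 in SJ2_ctl. Gohir.A05G149100, in the same stretch, had 0.344, 0.295 and 0 in NemX_ctl and 0 in all 3 NemX_rkn libraries, against 10.5, 8.35 and 11.9 in WMJJ_rkn and 9.45, 8.90 and 10.9 in SJ2_rkn (limma adjusted p = 1.35e-09 for NemX against WMJJ and 1.26e-08 for NemX against SJ2).

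Other genes were at or near 0 in WMJJ alone. Gohir.A05G303900 had at most 0.159 in the 6 WMJJ libraries. It had 160, 152 and 164 in NemX_ctl and 91.7, 90.1 and 119 in SJ2_ctl, and with nematodes 150, 135 and 141 in NemX_rkn and 150, 137 and 167 in SJ2_rkn. WMJJ_rkn was lower than SJ2_rkn by 8.11 on the log2 scale (log2 fold change -8.11, SE 0.16, limma adjusted p = 5.57e-18), a size that depends on the 0.5 added to each value.

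Gohir.A05G290900 had at most 0.648 in WMJJ, against 406, 270 and 426 in NemX_rkn and 116, 107 and 134 in SJ2_rkn. It was also higher in NemX_rkn than in SJ2_rkn (log2 fold change 1.60, SE 0.30, limma adjusted p = 0.00128; adjusted p = 0.0108 without the third NemX_rkn library and 0.0575 with 0.1 added in place of 0.5). Gohir.A05G150500 had 0.249, 0.588 and 0.248 in WMJJ_rkn, against 79.6, 73.8 and 77.5 in SJ2_rkn, and 51.9, 43.9 and 54.3 in NemX_rkn. Gohir.A05G239600 had at most 0.102 in WMJJ, with 23.4, 35.9 and 24.7 in NemX_rkn and 18.7, 11.8 and 16.5 in SJ2_rkn, and in SJ2_ctl it was at 0.324, 2.81 and 1.78.

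Such genes were no commoner on A05 than elsewhere. A gene was counted as silent in a genotype when all 6 of its libraries were below 0.5 and as expressed when all 6 were at least 2. Silent here means low signal on TM-1 transcripts, the only reference used, and a loss of expression was not tested. On A05, 4 genes (0.133%) were silent in NemX and expressed in WMJJ, against 0.152% of all tested genes, and 3 (0.10%) were silent in WMJJ and expressed in NemX, against 0.218% of all. One gene, Gohir.A05G188200, was silent in both NemX and SJ2 and had 10.6, 6.52 and 8.62 in WMJJ_ctl and 4.45, 9.32 and 4.84 in WMJJ_rkn.

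The largest decrease in NemX_ctl that did not involve silence was that of Gohir.A05G242000. It had 4.02, 3.72 and 3.48 in NemX_ctl and 2.89, 1.13 and 3.08 in WMJJ_ctl, against 20.5, 22.7 and 33.9 in SJ2_ctl. With nematodes the 3 genotypes were close, at 2.09, 1.68 and 2.45 in NemX_rkn, 1.01, 2.43 and 0.678 in WMJJ_rkn and 2.17, 2.35 and 2.28 in SJ2_rkn, and neither resistant genotype differed from SJ2_rkn past the threshold (adjusted p = 0.878 for NemX and 0.222 for WMJJ, limma). SJ2_ctl stood apart from the other 5 groups.

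**Figure D5:**
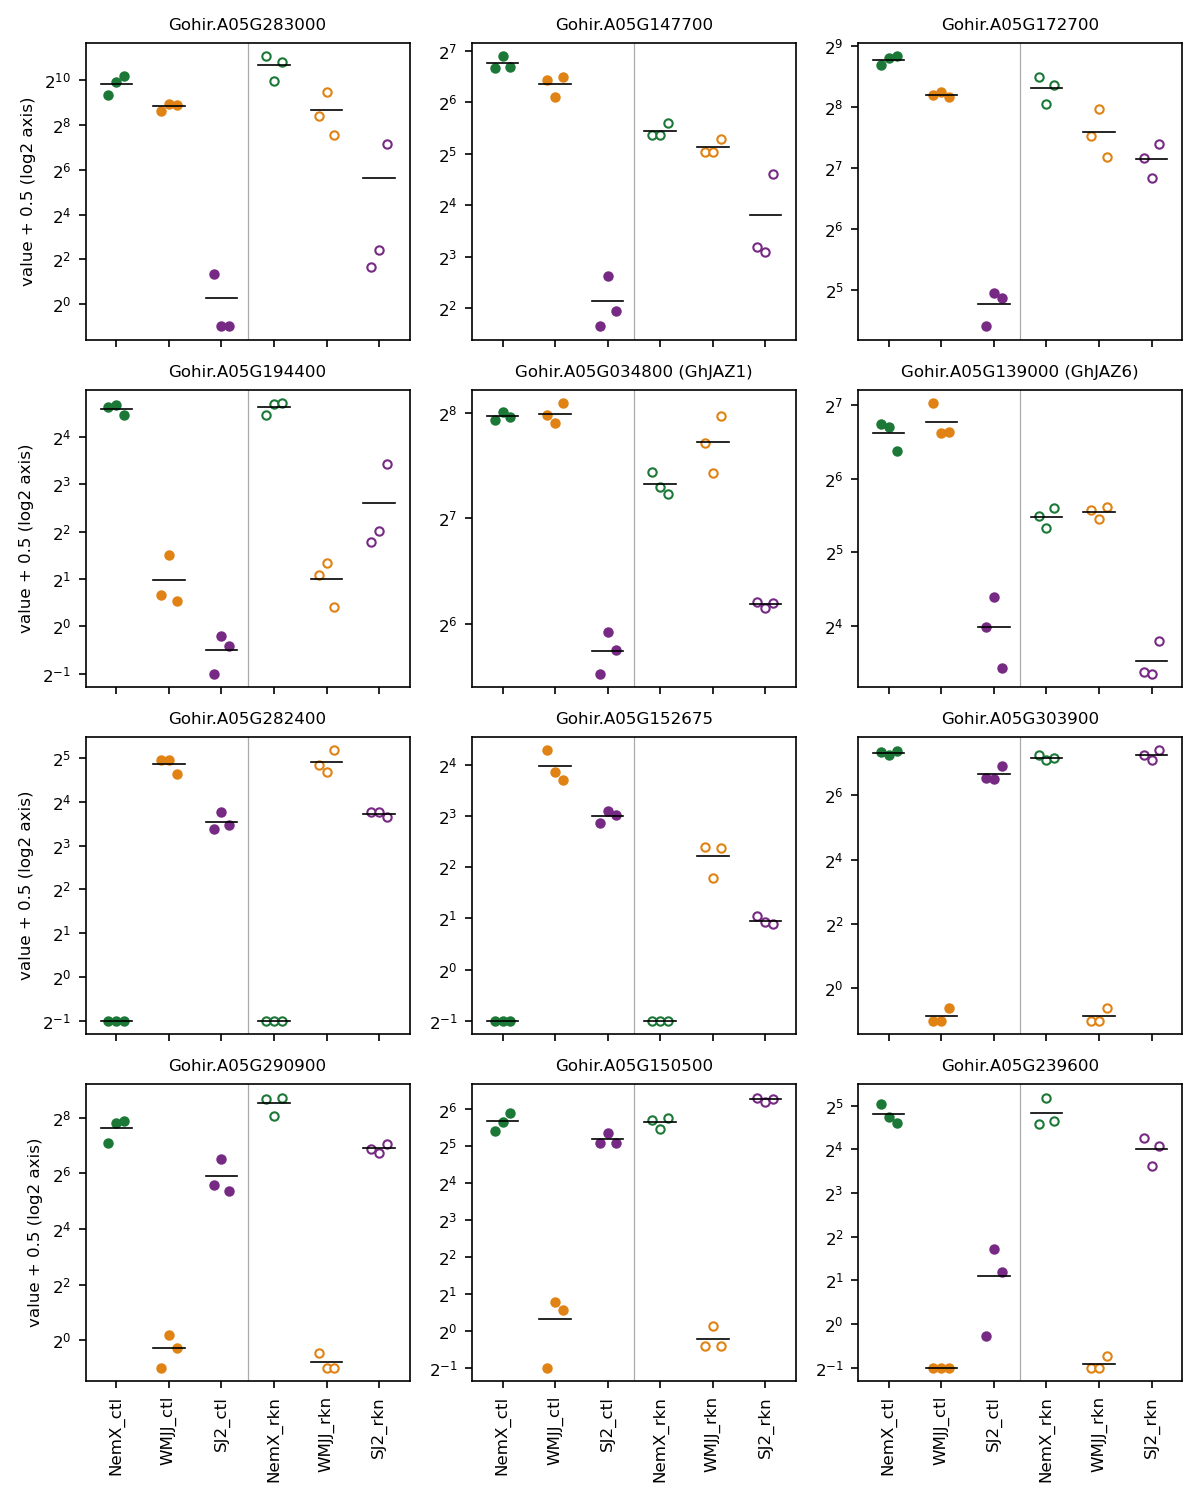
Values of 12 A05 genes in the 18 libraries, plotted as value + 0.5 on a log2 axis, by group (NemX green, WMJJ orange, SJ2 purple, filled without nematodes and open with them). Points are libraries and lines are group means, and each panel has its own scale. The upper 2 rows show genes for which SJ2_ctl was the lowest of the uninfested groups, such as Gohir.A05G283000. The lower 2 rows show genes at or near 0 in NemX or in WMJJ, such as Gohir.A05G282400 and Gohir.A05G303900.

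Of the A05 genes, 3 carry a protein label in the study: 2 JAZ genes and 1 WRKY gene. JAZ proteins, as known from Arabidopsis, repress the jasmonic acid response until the hormone triggers their breakdown, and their genes are themselves switched on by jasmonic acid. WRKY70 is a transcription factor of Arabidopsis that acts in salicylic acid defence. The study picked its JAZ genes on expression in these same libraries, so their direction is not independent evidence.

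Both JAZ genes were higher in NemX and WMJJ than in SJ2 with either treatment. Gohir.A05G034800 (GhJAZ1) had 243, 257 and 249 in NemX_ctl and 252, 238 and 272 in WMJJ_ctl, against 45.6, 60.0 and 53.3 in SJ2_ctl. With nematodes it had 173, 157 and 150 in NemX_rkn and 209, 172 and 250 in WMJJ_rkn, against 73.2, 70.5 and 72.9 in SJ2_rkn (log2 fold change 1.14, SE 0.14, limma adjusted p = 2.23e-05 for NemX; 1.52, SE 0.14, adjusted p = 1.71e-07 for WMJJ). Its neighbours Gohir.A05G034700 and Gohir.A05G034900 were also called higher in WMJJ_rkn than in SJ2_rkn (log2 fold changes 1.19 and 1.23, limma adjusted p = 8.68e-05 and 0.0081). They were picked out as a run by these same calls, which are therefore no separate evidence. In NemX_rkn over SJ2_rkn neither was called (log2 fold changes 0.51 and 0.90, limma adjusted p = 0.0665 and 0.0536).

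Gohir.A05G139000 (GhJAZ6) had 107, 104 and 82.4 in NemX_ctl and 130, 97.9 and 99.0 in WMJJ_ctl, against 15.3, 20.6 and 10.3 in SJ2_ctl. With nematodes it had 44.7, 39.8 and 48.1 in NemX_rkn and 47.4, 43.5 and 48.4 in WMJJ_rkn, against 9.92, 9.73 and 13.4 in SJ2_rkn (log2 fold change 1.97, SE 0.20, limma adjusted p = 2.41e-06 for NemX; 2.04, SE 0.20, adjusted p = 3.1e-07 for WMJJ). Every library of the resistant genotypes lay above every SJ2 library of the same treatment.

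Gohir.A05G404200 (GhWRKY70) had 41.2, 51.3 and 31.9 in NemX_ctl and 28.0, 38.2 and 16.1 in WMJJ_ctl, against 14.4, 8.65 and 9.13 in SJ2_ctl. With nematodes no difference from SJ2 was called (adjusted p = 0.703 for NemX and 0.806 for WMJJ, limma), with 12.1, 13.4 and 15.2 in NemX_rkn and 10.8, 6.81 and 8.49 in WMJJ_rkn, against 7.41, 3.94 and 36.4 in SJ2_rkn. The third SJ2_rkn library was again the highest of its group, above all infested NemX and WMJJ libraries.

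Among the named genes, the single largest response ran upward in SJ2 and in WMJJ. Responses use the uninfested libraries that the choice of the chromosome rested on, so they are described with no p. Gohir.A05G316200 had 169, 200 and 151 in SJ2_rkn, against 6.09e-09, 2.78 and 1.35 in SJ2_ctl, and 54.1, 40.4 and 81.4 in WMJJ_rkn, against 0, 0.874 and 0.303 in WMJJ_ctl. In NemX it had 28.9, 41.2 and 36.1 in NemX_rkn, against 9.66, 11.4 and 10.3 in NemX_ctl, a starting level above that of the other genotypes.

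Gohir.A05G018200 had 98.5, 48.4 and 88.7 in SJ2_rkn, against 1.1, 3.08 and 0.501 in SJ2_ctl (log2 fold change 5.40, SE 0.48). Its NemX_rkn values of 19.8, 17.3 and 21.5 lay inside the NemX_ctl range of 5.06 to 32.8. Gohir.A05G225300 was called in all 3 genotypes, with 88.3, 88.1 and 70.2 in SJ2_rkn, against 3.9, 6.48 and 1.48 in SJ2_ctl, and a log2 response of 4.39 in SJ2, 3.70 in WMJJ and 1.76 in NemX. The call in NemX was lost without the second NemX_ctl or the third NemX_rkn library.

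Among the decreases, Gohir.A05G229600 had 2.14, 2.13 and 1.58 in SJ2_rkn, against 58.6, 52.9 and 21.4 in SJ2_ctl (log2 fold change -4.08, SE 0.44). Gohir.A05G023100 had 0, 0.360 and 0.108 in SJ2_rkn, against 8.53, 11.1 and 9.89 in SJ2_ctl (log2 fold change -4.01, SE 0.37). In WMJJ the largest decreases were those of Gohir.A05G233800, with 2.47, 4.70 and 3.50 in WMJJ_rkn, against 79.5, 59.3 and 53.4 in WMJJ_ctl (log2 fold change -4.01, SE 0.22), and of Gohir.A05G313900, with 15.3, 30.3 and 13.4 in WMJJ_rkn, against 326, 251 and 229 in WMJJ_ctl (log2 fold change -3.81, SE 0.25). In all 4 genes infested and uninfested libraries did not overlap.

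In NemX the largest responses were those of genes with low values. Gohir.A05G148200 had 6.20, 6.52 and 6.59 in NemX_rkn, against 1.18, 1.5 and 0.170 in NemX_ctl (log2 fold change 2.40, SE 0.34). Gohir.A05G255400 had 3.25, 3.16 and 4.15 in NemX_rkn, against 0.782, 0.279 and 0.304 in NemX_ctl (log2 fold change 2.1). Gohir.A05G142000 had 1.90, 1.77 and 0.657 in NemX_rkn, against 5.32, 6.52 and 7.27 in NemX_ctl (log2 fold change -1.88). Gohir.A05G171632 had 0.797, 1.29 and 1.51 in NemX_rkn, against 3.92, 5.23 and 4.97 in NemX_ctl (log2 fold change -1.63). Of these 4 genes, Gohir.A05G148200 alone kept its call without each library in turn, and the calls of the other 3 were each lost without several NemX libraries.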

How the data were processed

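RNA was sequenced from roots of 3 genotypes under 2 treatments, 3 libraries per group. Per the labels, the authors used FastQC 0.11.9 and Trimmomatic 0.39 on the reads, kallisto 0.46.1 for pseudo-alignment to TM-1 transcripts, and edgeR 3.13. Their deposited table holds signal values for 54508 genes, normalized before deposit by a step not given in the sources used here. The values are not whole reads, so depth and counting error are unknown from the table, and 0 columns of values were left without a library. The paper lists the read number of each library.

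For the 46813 genes with a mean of at least 1, values plus 0.5 were log2-transformed and given to limma 3.58.1 (R 4.3.3), which estimated a mean for each of the 6 groups and let the variance follow the mean level. A count test, as in the study, does not suit this unit. All 9 comparisons of groups and 3 differences of responses came from this fit, with Benjamini-Hochberg adjustment over all genes within each. Shares of library totals were compared with exact two-sided permutation tests (scipy 1.17.1). The fit was tested on simulated data.

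The members, lists and tests were chosen with earlier results of these data known. Named genes are, in each uninfested comparison, the 3 largest increases and decreases without overlap between libraries, the 2 largest each way in each response, the 3 genes labelled in the study's figures, and the 2 largest in the 50-gene window with the most calls. Other genes were singled out after their values had been seen. The paper states that part of the samples were prepared with another kit, and it describes runs on 2 sequencers. Which libraries these were, and whether the 2 divisions coincide, is not given, so no term for either could be fitted from the labels. A RefSeq table matched 0 identifiers. Alternatives were filters, added constants, scalings, a replicate term, fits on the compared libraries alone, no trend, leaving out each library and, added after the data had been seen, a term for 6 libraries that deviate together and a fit without them.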

Additional observations from a re-analysis of the deposited data

Results flagged for a closer look

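Named A05 genes are given here where the response to nematodes (the log2 difference of infested and uninfested libraries) differed between 2 genotypes, with the interaction taken from the limma fit over all genes and called at the thresholds above. Values are signed differences of 2 log2 responses and do not rank the size of the responses. Gohir.A05G023100, for example, had log2 responses of -4.01 in SJ2 and -1.34 in NemX. Most of these genes were named for their uninfested values or for a response, and the interactions use the same uninfested libraries, so the values are a description and no p is given.

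The SJ2 response exceeded the NemX response, with differences of 5.02 for Gohir.A05G018200, 1.09 for Gohir.A05G034800, 2.86 for Gohir.A05G147700, 2.02 for Gohir.A05G149100, 2.23 for Gohir.A05G171632, 2.84 for Gohir.A05G172700, 2.91 for Gohir.A05G194400, 2.63 for Gohir.A05G225300, 3.09 for Gohir.A05G239600 and 5.20 for Gohir.A05G316200. The SJ2 response was smaller than the NemX response, with differences of -2.67 for Gohir.A05G023100, -2.08 for Gohir.A05G152700, -3.09 for Gohir.A05G229600 and -2.48 for Gohir.A05G242000. The SJ2 response exceeded the WMJJ response, with differences of 2.95 for Gohir.A05G018200, 2.78 for Gohir.A05G147700, 3.02 for Gohir.A05G172700, 2.90 for Gohir.A05G194400, 2.35 for Gohir.A05G201000, 2.38 for Gohir.A05G233800, 3.02 for Gohir.A05G239600, 2.32 for Gohir.A05G239650 and 3.10 for Gohir.A05G313900. The SJ2 response was smaller than the WMJJ response, with differences of -3.05 for Gohir.A05G023100 and -2.57 for Gohir.A05G242000. The WMJJ response exceeded the NemX response, with a difference of 4.41 for Gohir.A05G316200. The WMJJ response was smaller than the NemX response, with differences of -2.57 for Gohir.A05G233800 and -2.52 for Gohir.A05G313900.

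For Gohir.A05G152675, listed at 0 in all 6 NemX libraries, the values -2.04 (SJ2 minus NemX) and -1.76 (WMJJ minus NemX) only restate the change in SJ2 and in WMJJ and compare no responses. Much the same limit holds for Gohir.A05G149100 (SJ2 minus NemX), at most 0.344 in NemX. It also holds between SJ2 and WMJJ for Gohir.A05G201000, at most 0.361 in SJ2, and Gohir.A05G239600, at or near 0 in WMJJ. The interaction of Gohir.A05G018200 between SJ2 and WMJJ, among others, was lost when single libraries were left out. Groups of 3 libraries are too small for a test of single outlying libraries.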

How the results depend on the processing

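Counts of A05 calls, each named gene where it was called, and the 3 genes with a protein label in every uninfested comparison were recomputed under 27 alternatives and 2 added after the data had been seen. With a mean of at least 5 required, A05 kept 1189 genes from 5 to below 20 and 808 at 20 and above. Among these fewer genes 76 were called lower in NemX_ctl over SJ2_ctl, 102 in WMJJ_ctl over SJ2_ctl and 30 in NemX_ctl over WMJJ_ctl. The counts were 44 in NemX_rkn over SJ2_rkn, 60 in NemX_rkn over WMJJ_rkn and 97 in SJ2_rkn over SJ2_ctl. In the main fit 4.71% and 2.60% of these 2 classes were called lower in NemX_ctl over SJ2_ctl, against 4.39% and 2.25% on the chromosomes other than A05 and D05. With equal library totals 262 were called lower in NemX_ctl over SJ2_ctl. With the compared libraries alone, a fit with fewer samples, 100 were called lower in WMJJ_rkn over WMJJ_ctl and 11 higher in NemX_rkn over NemX_ctl. Without the intensity trend 9 were called lower in NemX_rkn over NemX_ctl, and 25 responses differed between WMJJ and NemX. The cause of the last was not tested.

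Leaving out each library gave 85 to 129 called lower in NemX_ctl over SJ2_ctl, 63 to 124 higher and 42 to 75 lower in NemX_rkn over SJ2_rkn, 10 to 26 higher and 4 to 20 lower in NemX_rkn over NemX_ctl, and 20 to 57 differing between the WMJJ and NemX responses. The difference in A05 share between WMJJ_rkn and SJ2_rkn ran from -0.0477 to 0.0718 percentage points and changed sign without the second WMJJ_rkn or the third SJ2_rkn library. Counts higher in NemX_ctl over SJ2_ctl and in WMJJ_ctl over SJ2_ctl stayed within 1.5 times of the main ones throughout (329 to 358 and 252 to 298 when leaving out libraries). Of 175 comparisons of named genes, 128 kept call and direction in every alternative. The 1 that reversed was Gohir.A05G034800 in NemX_ctl over WMJJ_ctl, which was not called, between -0.07 and 0.02 when libraries were left out (0.02 without the third WMJJ_ctl library) and at 0.03 in the 12 libraries below.

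Libraries with the same replicate number deviated together in part (r from -0.224 to 0.442 over 45 pairs, 20 of them over 0.1, and 10 of 18 libraries correlated best with their own number), so the numbers were not taken to pair them. The 6 libraries that did deviate together are the third of 5 groups and the first of NemX_rkn, which the replicate block puts with others. With a term for these 6, 24 were called lower in NemX_rkn over NemX_ctl and 79 responses differed between WMJJ and NemX. In the 12 others alone, a fit with fewer samples, 84 were called lower in NemX_ctl over SJ2_ctl, 14 higher in NemX_rkn over NemX_ctl, and 25 responses differed between WMJJ and NemX. The replicate block changed no count beyond 1.5 times, with 359 called higher in NemX_ctl over SJ2_ctl.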
